A study of Homo sapiens with 14 samples.

Results

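The 10 genes of the AP-1 family were examined as places where GATA3 was found on chromatin in MDA-MB-231 cells, a long-established human line from a breast tumour of the triple-negative kind. The members were chosen by name as a transcription factor family: FOS, FOSB, FOSL1 and FOSL2, then JUN, JUNB and JUND, then ATF3, BATF and BATF3, 10 of 20037 protein-coding genes. ChIP-seq, in which chromatin is pulled down with an antibody and its DNA sequenced, gave 1 GATA3 peak list for each of 12 libraries, in 6 groups of 2. With GATA3 carrying a FLAG tag at its C-terminal end these were the point mutant A442M (A442M-FLAG), the point mutant G444E (G444E-FLAG) and the wildtype protein (WT-FLAG), and without a tag they were A442M, G444E and WT. Cells of every group received no treatment and were harvested on day 3, and the same antibody against GATA3 was used for tagged and untagged protein. The design text says that the tag stabilises GATA3 whatever the mutation. The sample labels name the mutations by their amino acids alone, and the positions come from the design text. Whether cells were clones, how GATA3 was introduced, and whether replicates were separate cultures is not given in the sources used here, so p-values measure the spread between these libraries, which may be technical. Cells with an empty vector are labelled too but are not analysed here, and the values have no background list beside them. No expression was measured, so neither the cell line nor the level of GATA3 was checked against markers.

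AP-1 is a dimer of basic leucine zipper proteins. JUN proteins pair with each other or with FOS proteins, FOS proteins need a JUN partner, and ATF and BATF proteins join the same dimers with other site preferences. AP-1 is induced by growth factor and stress kinases, and in triple-negative breast cancer cells it is known for driving invasion genes, with FOSL1 among its best known members there. GATA3 is a zinc-finger factor of luminal breast epithelium that binds the letters GATA in DNA.

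A region is a stretch of the genome covered by peaks that overlapped by at least 1 bp in any of the 12 lists, and a call is a peak of a given library in it. Of 78999 regions, 82 lay in the windows of the 10 genes, each window being the gene span plus 50 kb either side. The windows of ATF3 and BATF3, neighbours on chromosome 1, overlapped and shared 3 of these regions. Coordinates are 1-based on hg38, and gene spans, without exons, are those of RefSeq on GRCh38.p14. Exon, intron and untranslated region were therefore not assigned. Of the 82 regions 5 overlapped the member's own span, 20 the span of another protein-coding gene, 21 only noncoding spans and 36 no annotated span. They were 191 to 1460 bp wide, with a median of 402.5 bp.

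Promoter letters are shown for the 3 members with a called region closest to the stretch before the gene start, among the 8 members in the promoter table (not FOSL1 and BATF3), from RefSeq (GRCh38.p14), 250 bases ending at the base before the start, 5′ to 3′ on the gene's strand. Capitals mark matches, searched on both strands. The GATA spellings were AGATAA, then AGATAG, also TGATAA, and lastly TGATAG. For AP-1 the letters TGANTCA were searched, and for the related ATF and JUN dimers TGACGTCA and its variant TGACATCA. No matches overlapped each other in these 3 stretches.
BATF, chr14:75522219-75522468, plus strand: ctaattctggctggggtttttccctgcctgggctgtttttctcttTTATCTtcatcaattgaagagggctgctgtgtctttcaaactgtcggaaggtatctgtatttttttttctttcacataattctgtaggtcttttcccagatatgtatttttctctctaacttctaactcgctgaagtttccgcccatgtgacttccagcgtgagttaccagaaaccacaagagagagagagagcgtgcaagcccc
JUN, chr1:58784048-58784297, minus strand: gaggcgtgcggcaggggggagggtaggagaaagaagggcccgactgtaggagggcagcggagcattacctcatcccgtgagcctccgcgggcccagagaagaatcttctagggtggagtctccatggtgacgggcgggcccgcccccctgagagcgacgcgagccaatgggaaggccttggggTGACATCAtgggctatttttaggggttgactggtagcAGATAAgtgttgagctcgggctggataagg
FOS, chr14:75278578-75278827, plus strand: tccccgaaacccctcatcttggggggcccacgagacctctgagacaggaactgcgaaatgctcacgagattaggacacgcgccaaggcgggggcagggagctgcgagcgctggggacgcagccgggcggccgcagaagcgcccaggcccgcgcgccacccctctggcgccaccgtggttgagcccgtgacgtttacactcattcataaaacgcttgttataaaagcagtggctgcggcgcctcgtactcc
The nearest region lay 169 bp from the BATF stretch, 841 bp from the JUN stretch and 1067 bp from the FOS stretch, so no called region covered them. A GATA spelling was present in the BATF and JUN stretches, 2 of the 9 stretches of the 8 members in the table, against 17.9% of 22199 stretches of protein-coding genes. The letters TGACATCA were present at JUN and ATF3, against 1.95% of all stretches, and TGACGTCA at JUND, against 2.01%. TGANTCA was in none of the 9, against 5.36% of all. A match is a description of the letters and not a binding site.

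The windows held more regions than a typical gene window, and the share of them called in every library was close to that of all regions. The members had 3 to 13 regions each, with a median of 8.5, against a median of 4.0 over all protein-coding genes. Per 100 kb of window the medians were 7.65 and 3.06. Calls in all 12 libraries were seen at 11 of the 82 (13.4%), against 13.8% of all regions. Such a region lay in the windows of 7 of the 10 genes, against 40.6% of protein-coding genes. The exceptions were FOS, JUNB and JUND. In the libraries, 51 and 40 member regions were called in A442M-FLAG, 50 and 29 in G444E-FLAG, 48 and 30 in WT-FLAG, 35 and 34 in A442M, 33 and 23 in G444E, and 29 and 19 in WT, replicate 1 first. Lists were 25248 to 51694 peaks long, with the most member regions in the longest list (51) and the fewest in the shortest (19). Peaks in the windows made up 0.0982% ± 0.00396 of an A442M-FLAG list, 0.111% ± 0.0208 of a G444E-FLAG list, 0.0985% ± 0.0206 of a WT-FLAG list, 0.0925% ± 0.00247 of an A442M list, 0.0972% ± 0.0167 of a G444E list and 0.0897% ± 0.0203 of a WT list (SD, n = 2 each). These shares overlapped between most groups. The A442M libraries (0.0907% and 0.0942%) lay below both A442M-FLAG libraries (0.101% and 0.0954%). They also lay below both G444E-FLAG libraries (0.126% and 0.0966%). The number of reads behind a list is unknown, and in bulk chromatin fewer cells with GATA3 at a site and less GATA3 per cell cannot be told apart.

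**Figure D1:**
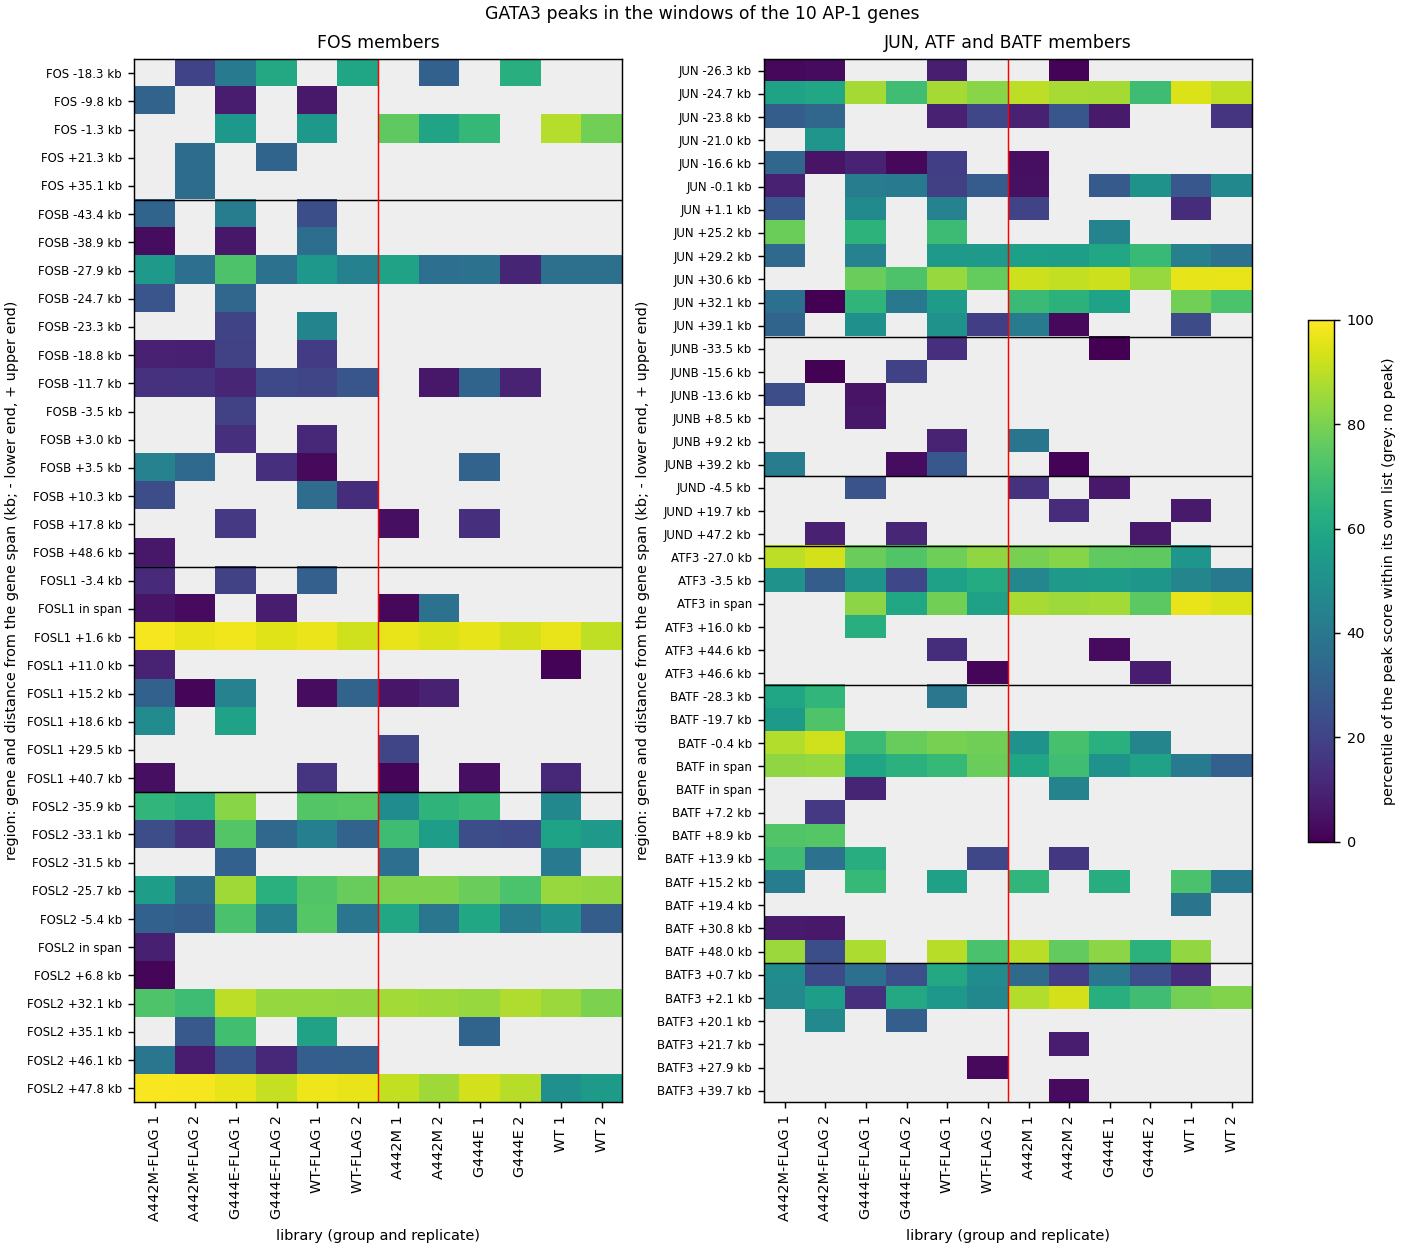
Peak rank of every member region (rows, with the distance in kb from the lower or upper end of the gene span) in each of the 12 libraries (columns, FLAG left of the red line). Colour is the percentile of the peak's score within its own list and grey means no peak. The 3 regions shared by both neighbours are drawn under ATF3. Of the 82 rows, 11 are filled in all 12 columns, and the JUNB and JUND rows are filled in at most 4.

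The score of a peak is the authors' own value on an unnamed scale, and it is given here as a percentile, the share of the same list that scored lower. Lists differ in length, so percentiles set side by side give ranks and not a measured change. The median percentile was 30.7 over member regions and 32.1 over all regions. Values follow the order A442M-FLAG, G444E-FLAG, WT-FLAG, A442M, G444E and WT, with replicate 1 before replicate 2.

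Among the FOS members, FOSL1 and FOSL2 had the strongest peaks, FOSB had many weak ones and FOS itself had few. FOSL1, whose protein FRA-1 is a FOS factor without a transactivation domain of its own, had 8 regions on chromosome 11 around its span from 65892049 to 65900545. The region 65902146 to 65903605, 1601 bp beyond the upper end of the span, was called in all 12 libraries and overlapped no annotated span. Its percentiles were 98.6 and 96.8 in A442M-FLAG, 97.7 and 95.2 in G444E-FLAG, 97.0 and 92.9 in WT-FLAG, 96.7 and 94.9 in A442M, 96.4 and 93.7 in G444E, and 96.7 and 90.4 in WT. No library ranked it under 90.4. The A442M-FLAG values overlapped those of the other FLAG groups. They lay above every untagged value, by a narrow margin (96.8 against 96.7). The region 65891827 to 65892375, across the lower end of the span, was called in both A442M-FLAG libraries, both A442M libraries and 1 G444E-FLAG library. Its percentiles were 5.60 and 2.93 in A442M-FLAG, 7.48 in G444E-FLAG, and 2.06 and 37.4 in A442M. On the other side of the gene, 65915715 to 65916290, 15170 bp beyond the upper end, was called in both A442M-FLAG, both WT-FLAG and both A442M libraries and in G444E-FLAG replicate 1, at percentiles of 1.34 to 44.3. Both of these weaker regions had calls in the 4 A442M and A442M-FLAG libraries and none in WT or G444E.

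FOSL2, encoding the FOS factor FRA-2, had the most shared regions of the family. Of its 11 regions on chromosome 2, around the span from 28392858 to 28417317, 5 were called in all 12 libraries and 6 in 8 or more. The region 28465109 to 28466313, 47792 bp beyond the upper end, had percentiles of 99.0 and 98.6 in A442M-FLAG, 96.3 and 91.4 in G444E-FLAG, 97.6 and 96.7 in WT-FLAG, 90.7 and 85.7 in A442M, 93.2 and 89.3 in G444E, and 50.1 and 54.4 in WT. Both WT values lay below the other 10 and both A442M-FLAG values above them. Its neighbour 28463368 to 28464474 was called in all 6 FLAG libraries and no untagged one, at percentiles of 39.4 and 7.65 in A442M-FLAG, 26.6 and 11.4 in G444E-FLAG, and 30.0 and 30.1 in WT-FLAG. Closer to the gene, the region 28387091 to 28387476, 5382 bp upstream of the start and inside the antisense transcript FOSL2-AS1, was called in all 12 libraries at percentiles of 29.4 to 73.7. The region 28366450 to 28367146, 25712 bp upstream, had percentiles of 56.1 and 35.5 in A442M-FLAG, below the 63.5 to 85.8 of the other 10 libraries. Inside the FOSL2 span the region 28408944 to 28409505 was called in A442M-FLAG replicate 1 alone, at a percentile of 8.73.

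FOSB, an immediate-early FOS gene on chromosome 19 from 45467996 to 45475179, had the most regions, 13, with low ranks. The region 45439295 to 45440092, inside the DNA repair gene ERCC1, was called in all 12 libraries at percentiles of 10.2 to 71.9. Next came 45455764 to 45456259, 11737 bp upstream of the start, called in all 6 FLAG libraries, in A442M replicate 2 and in both G444E libraries, at percentiles of 6.41 to 32.3, and in neither WT library. Of the other 11, 9 were called in FLAG libraries alone, and 8 of the 13 in replicate 1 libraries alone. Lists were longer in FLAG than in untagged libraries of the same genotype and replicate number. They were also longer in replicate 1 than in replicate 2 of every group. The part of list length in these FOSB counts was not tested. The region nearest to the start, 45464341 to 45464531, was called in G444E-FLAG replicate 1 alone. Inside ERCC1, 45448940 to 45449236 had percentiles of 9.07 and 8.72 in A442M-FLAG, 19.6 in G444E-FLAG replicate 1 and 17.6 in WT-FLAG replicate 1. Downstream, 45478688 to 45479231 had percentiles of 44.5 and 34.0 in A442M-FLAG, 13.4 in G444E-FLAG replicate 2, 2.49 in WT-FLAG replicate 1 and 31.7 in G444E replicate 1. The region 45485483 to 45486000, inside the gene RTN2, was called in A442M-FLAG replicate 1 and in both WT-FLAG libraries, at 13.2 to 35.9. Most calls at these 4 regions came from FLAG libraries. Over all members 27 of 82 regions (32.9%) were called in replicate 1 alone and 11 (13.4%) in replicate 2 alone, against 24.6% and 12.8% of all regions.

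FOS, the immediate-early founder of the family, had 5 regions on chromosome 14 around its span from 75278828 to 75282230, and none was called in more than 7 libraries. The region 75277187 to 75277511, 1317 bp upstream of the start, had percentiles of 53.4 in G444E-FLAG replicate 1, 53.3 in WT-FLAG replicate 1, 75.1 and 58.4 in A442M, 66.6 in G444E replicate 1, and 89.0 and 78.7 in WT. It was not called in either A442M-FLAG library, and the ranks in WT were above all others. Farther upstream, 75259841 to 75260500 was called in 6 libraries at percentiles of 20.1 to 62.9.

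JUN carried the most widely called regions of the JUN members, and JUNB and JUND carried few and weak ones. JUN, the partner of most FOS proteins, lies on chromosome 1 from 58780791 to 58784047 on the minus strand and had 12 regions, 6 of them called in 8 or more libraries. The region 58814644 to 58815525, 30597 bp upstream of the start and inside the divergent transcript JUN-DT, was called in every library except those of A442M-FLAG. Its percentiles were 77.1 and 72.1 in G444E-FLAG, 84.7 and 76.3 in WT-FLAG, 92.4 and 91.0 in A442M, 92.4 and 84.7 in G444E, and 96.1 and 96.5 in WT. It ranked high in all 10 lists that held it, and the A442M-FLAG lists without it held 51694 and 42993 peaks, against 25248 to 43208 in the others. A pattern of this kind, called in every library but both of A442M-FLAG, was seen in 170 of 78999 regions (0.215%), 2 of them in member windows. Downstream, the region 58754718 to 58756126 was called in all 12 libraries with percentiles of 57.7 and 59.7 in A442M-FLAG, 86.4 and 69.5 in G444E-FLAG, 86.7 and 82.2 in WT-FLAG, 89.9 and 87.1 in A442M, 86.7 and 69.0 in G444E, and 94.7 and 90.6 in WT. The A442M-FLAG values were the lowest and the WT values the highest.

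Near the JUN gene itself ranks were lower than at the regions described above. The 2 nearest regions had median percentiles of 28.8 and 27.0, close to the median of 32.1 over all regions. The region 58779927 to 58780700, 91 bp beyond the lower end, was called in 10 libraries at percentiles of 4.47 to 51.3, and the region 58785138 to 58785920, 1091 bp upstream of the start, in 5 libraries at 13.2 to 47.8. All 5 were replicate 1 libraries. The regions 58813227 to 58813625 and 58816118 to 58816566, on either side of the one that A442M-FLAG lacked, were each called in 10 libraries. The second of these had percentiles of 36.4 and 0.190 in A442M-FLAG against 78.6 and 71.7 in WT. Farther upstream, 58823156 to 58823871 was called in 7 libraries at 2.11 to 50.8, in both A442M libraries and in neither G444E library. Downstream, 58762937 to 58764143 was called in 6 libraries at 2.16 to 33.0, of which 1 was untagged. JUNB, a JUN protein known for opposing JUN in some settings, had 6 regions on chromosome 19 around 12791486 to 12793315, each called in 4 libraries or fewer. Its most widely called region, 12832520 to 12832846, had percentiles of 0.826 to 42.2. The nearest to the gene, 12801864 to 12802090, was called in G444E-FLAG replicate 1 alone, at 6.31. JUND, the broadly expressed JUN protein, had 3 regions around its span from 18279694 to 18281622, each in 3 or fewer libraries, with no percentile above 25.7. The nearest, 18274780 to 18275171, was called in G444E-FLAG, A442M and G444E replicate 1.

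ATF3, a stress-induced factor that often acts as a repressor, had a region inside its span with the same pattern as the one upstream of JUN. The gene lies on chromosome 1 from 212565407 to 212620777. The region 212595955 to 212596493 was called in neither A442M-FLAG library and in the other 10, at percentiles of 82.6 and 60.0 in G444E-FLAG, 78.8 and 57.2 in WT-FLAG, 86.9 and 85.2 in A442M, 86.2 and 74.9 in G444E, and 96.6 and 94.5 in WT. The WT ranks were above all others. The region 212537628 to 212538372, 27035 bp upstream of the start, had percentiles of 90.0 and 93.6 in A442M-FLAG, 77.0 and 72.8 in G444E-FLAG, 77.9 and 83.4 in WT-FLAG, 79.3 and 81.9 in A442M, 75.5 and 75.1 in G444E, and 52.5 in WT replicate 1, and WT replicate 2 had no peak there. At ATF3 the regions therefore ranked in opposite orders, A442M-FLAG highest upstream and without a call inside the gene. Closer to the start, 212561278 to 212561889, 3518 bp upstream, was called in all 12 libraries at 21.5 to 61.4.

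BATF, a partner of JUN proteins known from lymphocytes, held 3 regions called in both A442M-FLAG libraries and in no other group. It lies on chromosome 14 from 75522469 to 75546992 and had 12 regions. Of these, 75502180 to 75502729, 75555892 to 75556274 and 75577808 to 75578213 were these regions. Their percentiles were 54.6 and 72.6 at the first, 72.9 and 73.7 at the second, and 7.23 and 6.83 at the last. Calls of this kind were seen in 3159 of 78999 regions (4.0%), and the 3 at BATF were the only ones among the 82. A further region, 75493761 to 75494147, had percentiles of 59.2 and 65.9 in A442M-FLAG and 39.5 in WT-FLAG replicate 1, and no other call.

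At the BATF start the untagged WT libraries were the ones without a peak. The region 75521337 to 75522050, which ends 419 bp upstream of the start, next to the BATF letters shown above, had percentiles of 88.4 and 92.7 in A442M-FLAG, 68.0 and 76.6 in G444E-FLAG, 79.4 and 78.2 in WT-FLAG, 50.8 and 70.8 in A442M, 63.6 and 45.5 in G444E, and no call in WT. Called in every library but untagged WT were 2061 of 78999 regions (2.61%), and this was 1 of the 82. Inside the gene, 75535733 to 75536456 was called in all 12 libraries with percentiles of 83.5 and 84.2 in A442M-FLAG, 58.8 and 63.7 in G444E-FLAG, 67.1 and 77.1 in WT-FLAG, 59.0 and 69.5 in A442M, 50.9 and 57.6 in G444E, and 41.5 and 30.7 in WT. Both regions ranked highest in A442M-FLAG. Untagged WT lists also stood apart in peaks off the assembled chromosomes, with a mean of 97.0, against 18.5 in A442M-FLAG, 19.5 in G444E-FLAG, 21.0 in WT-FLAG, 66.0 in A442M and 20.5 in G444E. Its part in the missing calls was not tested.

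BATF3, a factor of dendritic cell development, had 9 regions around its span on chromosome 1 from 212686417 to 212699840. Its strongest region, 212701961 to 212702464, 2121 bp beyond the upper end, was called in all 12 libraries. The percentiles there were 47.2 and 55.5 in A442M-FLAG, 13.8 and 60.3 in G444E-FLAG, 53.2 and 46.6 in WT-FLAG, 88.4 and 93.5 in A442M, 63.2 and 69.2 in G444E, and 79.1 and 80.9 in WT. Every untagged library ranked it above every FLAG library. The share of all regions with this order is not given here, and ranks were not tested for the tag. The adjacent region 212700563 to 212701576 was called in all libraries except WT replicate 2, at percentiles of 13.2 to 60.2. The other 7 regions were called in 1 or 2 libraries.

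**Figure D2:**
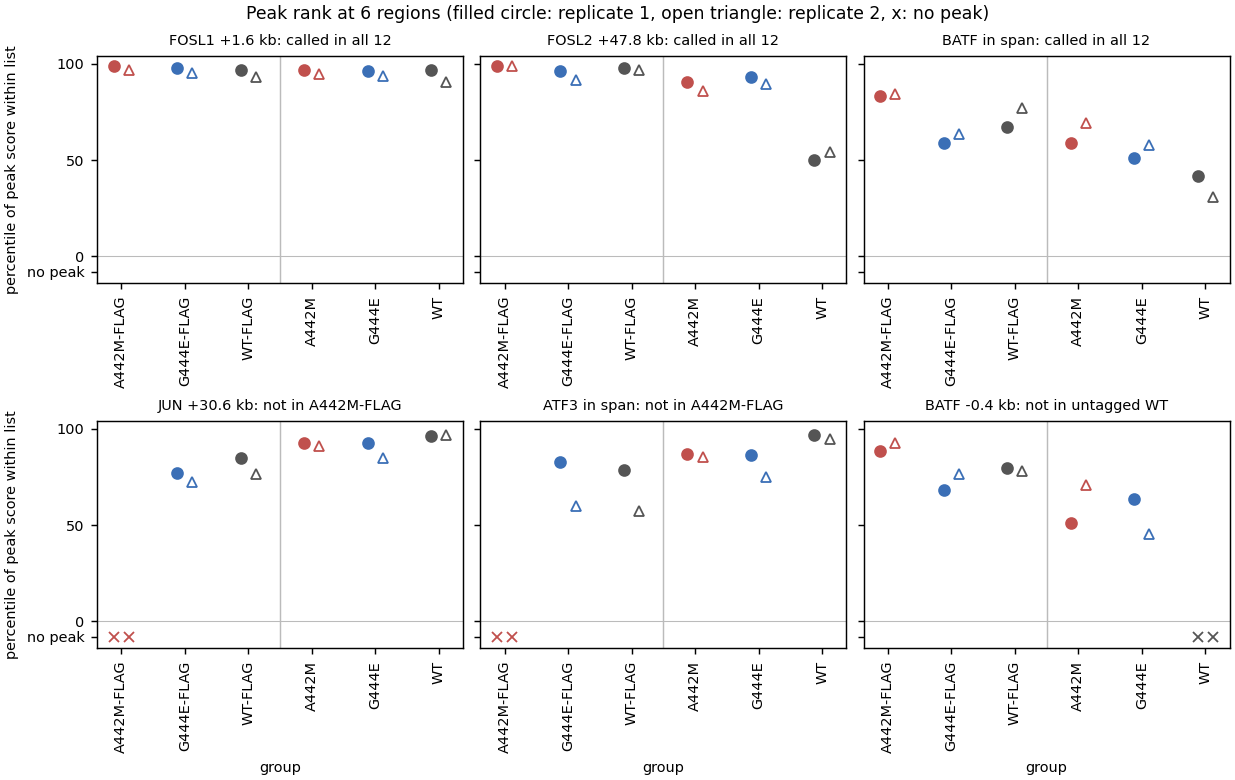
Percentile of the peak score within its list (vertical axis) by group (horizontal axis) at 6 member regions, with 1 symbol per library, a filled circle for replicate 1, an open triangle for replicate 2 and a cross for no peak. The FOSL1 region lies above 90 in all 12 libraries, the JUN and ATF3 regions lack peaks in A442M-FLAG, and the BATF region upstream of the start lacks them in WT.

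Over the 11 regions called in all 12 libraries, the extremes belonged mostly to A442M-FLAG and WT. Both A442M-FLAG percentiles lay below the other 10 at 3 of the 11 (1 at JUN and 2 at FOSL2), against 9.41% of the 10933 such regions of the genome, and above them at 2 (BATF and FOSL2), against 9.19%. Both WT percentiles were the lowest at 2 of the 11, at BATF and FOSL2, against 24.9%, and the highest at 1, the JUN region, against 3.83%. WT-FLAG was highest at 1, by ATF3, against 2.06%, and A442M at 1, by BATF3, against 5.54%.

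Whether the FLAG tag changes where GATA3 is found was asked over the 6 FLAG and 6 untagged libraries. No region or gene passed the test, and 29 of 82 member regions (35.4%) were called in FLAG libraries alone, against 30.2% of all regions. FOSB had 9 and 4 regions in A442M-FLAG, 10 and 3 in G444E-FLAG and 9 and 3 in WT-FLAG, against 2 and 2 in A442M, 4 and 2 in G444E and 1 and 1 in WT. FLAG was higher in 6 of 6 same-number pairs, but the ranges overlapped, and the mean difference was 4.33 regions (exact permutation test within genotype, two-sided, p = 0.0185, adjusted p = 0.174 by Benjamini-Hochberg over 17721 genes). The 9 other members had differences of -0.333 to 2.17 regions with exact permutation p-values of 0.0648 to 1.0. Over all genes 0.0% passed the adjusted threshold of 0.05, while at an unadjusted p under 0.05 19.1% were higher and 0.593% lower in FLAG. FOSB was the 1 member of 10 at that level, and 0 members were lower. FOSL2 was also higher in FLAG in 6 of 6 same-number pairs, with 9 and 8 regions in A442M-FLAG, 9 and 6 in G444E-FLAG and 8 and 7 in WT-FLAG, against 7 and 6 in A442M, 7 and 5 in G444E and 7 and 5 in WT. With the replicate number as a block, FOSB and FOSL2 both had an exact permutation p of 0.0312, the smallest that fit allows (adjusted p = 0.251 each). Without any 1 of the 6 untagged libraries the FOSB p was 0.0556 to 0.102. With lists cut to the length of the shortest, the FOSB difference was -0.167 regions, a turn of direction.

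**Figure D3:**
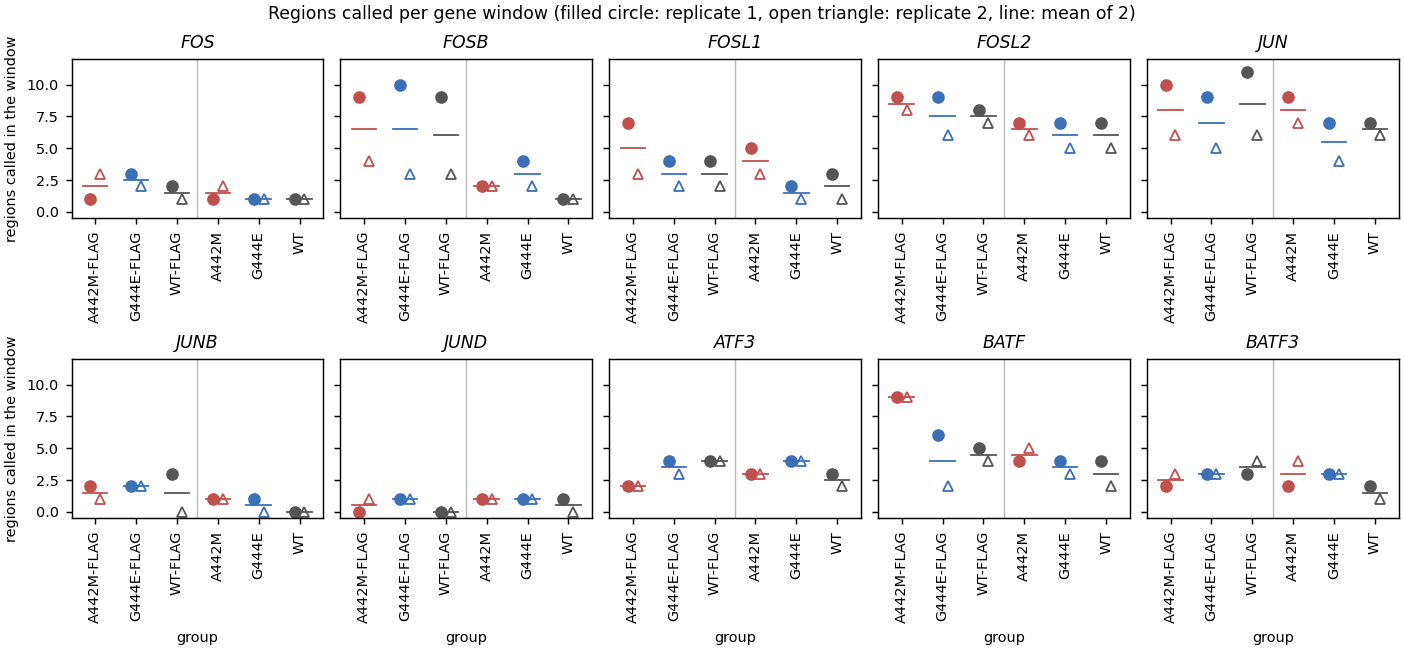
Number of regions called in each gene window (vertical axis) by group (horizontal axis, FLAG left of the grey line), with a filled circle for replicate 1, an open triangle for replicate 2 and a line at the mean of both. FOSB shows 9 or 10 regions in the 3 FLAG replicate 1 libraries and at most 4 elsewhere, and JUNB and JUND stay at 3 or fewer in every library.

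At single regions, FOSL2 28463368 to 28464474 was called in 6 of 6 FLAG and 0 of 6 untagged libraries (Fisher's exact test, two-sided, p = 0.00216, adjusted p = 0.104 by Benjamini-Hochberg over 11777 regions), the smallest p that 6 against 6 libraries allow. With the replicate number as a block its exact p was 0.005 (adjusted p = 0.068), the smallest that block allows. All FLAG and no untagged libraries called 230 of 78999 regions (0.291%), this 1 among the members. Of the 12 member regions whose calls could reach an unadjusted p of 0.05, it was the 1 with more calls in FLAG at that level (8.33%), against 11.3% of testable regions, 0 had more in untagged libraries, against 1.63%, and 0.0% of regions passed after adjustment. With a score of at least 10 it was called in 4 FLAG libraries and no untagged one, and with lists of equal length in none. A further setting, chosen after seeing the data, left out the untagged WT and A442M libraries, whose lists held more peaks off the assembled chromosomes. There the FOSL2 region was called in 6 of 6 FLAG and 0 of 2 untagged libraries (Fisher's exact test, p = 0.0357, adjusted p = 0.695). That is the smallest p that 6 against 2 libraries allow. Since no untagged library called the region, leaving some out could not change this pattern. The member region FOSL1 65891827 to 65892375 was called in 4 of 4 A442M and A442M-FLAG libraries and 0 of 4 WT and WT-FLAG libraries (Fisher's exact test, two-sided, p = 0.0286, adjusted p = 1.0), the smallest p that 4 against 4 allow. It was 1 of 7 testable member regions with more calls in A442M at that level (14.3%), against 2.39% of testable regions, and 0 had more in WT, against 0.0407%. With a score of at least 10 it was called in 1 A442M library. With replicate numbers as a block its exact p was 0.0556, the smallest that design allows, so the block cannot test it. For 8 mutant against 4 WT libraries, 4 G444E against 4 WT and 4 A442M against 4 G444E libraries, tag states pooled, 0 of 27, 0 of 4 and 0 of 6 testable member regions reached an unadjusted p of 0.05 in Fisher's exact test. Over the genome, 0.206% of testable regions had more calls in mutants and 0.105% more in WT at that level, 0.265% more in G444E and 1.14% more in WT, and 8.09% more in A442M and 0.344% more in G444E, in the order of these comparisons. After adjustment 0 regions passed in any of these 3 comparisons. With 4 against 4 libraries the smallest p that Fisher's exact test allows, 0.0286, left little room to pass.

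Pairs of groups were compared by regions called in both libraries of one and neither of the other, since 2 against 2 libraries cannot go below p = 0.33 in an exact test. A442M-FLAG against WT-FLAG had 4 member regions on the A442M-FLAG side and 2 on the WT-FLAG side, of 70 called in any of the 4 libraries. These were 5.71% and 2.86%, against 7.15% and 1.89% of all regions. The A442M-FLAG side held the 3 BATF regions and the FOSL1 region at the lower end of the span, and the WT-FLAG side held the JUN and ATF3 regions. A442M-FLAG against G444E-FLAG gave 6 and 2 (8.33% and 2.78%, against 11.0% and 1.38%), with the same JUN and ATF3 regions absent from A442M-FLAG. The side of A442M-FLAG held 4 regions at BATF and 2 at JUN, 58754169 to 58754477 and 58756514 to 58756985. A442M-FLAG against untagged A442M gave 7 and 3 (9.72% and 4.17%, against 12.5% and 4.71%), and here the FOS region 1317 bp upstream joined JUN and ATF3 on the untagged side. These 3 comparisons share the A442M-FLAG libraries.

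The remaining pairs leaned to the longer list or gave few regions. WT-FLAG against WT gave 5 and 0 (8.93% and 0.0%, against 16.8% and 4.34%), namely regions at FOSB (2), FOSL1, FOSL2 and the BATF start. A442M against WT gave 3 and 0 (6.52% and 0.0%, against 11.0% and 1.08%), at FOSL1 (2) and the BATF start. G444E against WT gave 2 and 0 (4.76% and 0.0%, against 8.72% and 6.27%), at FOSB and the BATF start. A442M against G444E gave 3 and 0 (5.88% and 0.0%, against 8.28% and 1.38%), G444E-FLAG against WT-FLAG 0 and 2 (0.0% and 2.99%, against 0.659% and 3.11%), and G444E-FLAG against G444E 2 and 0 (3.23% and 0.0%, against 3.57% and 0.7%). No share on the side of the longer list was above that of all regions in these pairs.

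With the lists cut to equal length, A442M-FLAG lacked more member regions than it gained. Member regions called were then 17 and 14 in A442M-FLAG, against 31 and 23 in G444E-FLAG, 27 and 21 in WT-FLAG, 24 and 23 in A442M, 27 and 23 in G444E, and 26 and 19 in WT. Both A442M-FLAG counts lay below those of the other 10 libraries, and the longest list, from A442M-FLAG, lost the most peaks by the cut, from its low scores. Against WT-FLAG, 3 member regions were on the A442M-FLAG side, all at BATF, and 6 on the WT-FLAG side, which were 8.57% and 17.1%, against 5.59% and 4.12% of all regions. The 6 were 2 at JUN, 2 at FOSL2, 1 inside ATF3 and 1 by BATF3. Only JUN 58814644 and the ATF3 region had no peak in the full A442M-FLAG lists. The others had a peak in at least 1 full A442M-FLAG list and fell below the cut, such as FOSL2 28359266 (percentiles of 23.5 and 14.7). Against G444E-FLAG the counts were 3 and 7 (7.32% and 17.1%, against 7.41% and 4.78%), and against untagged A442M 3 and 7 (8.82% and 20.6%, against 10.4% and 9.25%). Here too, regions absent from A442M-FLAG included some with peaks in its full lists. The regions at JUN 58814644 and in ATF3 were absent from A442M-FLAG, and the BATF regions at 75502180 and 75555892 present in it alone, with all peaks, with a score of at least 10 and with equal lists. With peaks that cover at least 50% of a region, the ATF3 region and BATF 75555892 kept this pattern, and JUN 58814644 and BATF 75502180 left these lists. These group comparisons have no test of their own.

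**Figure D4:**
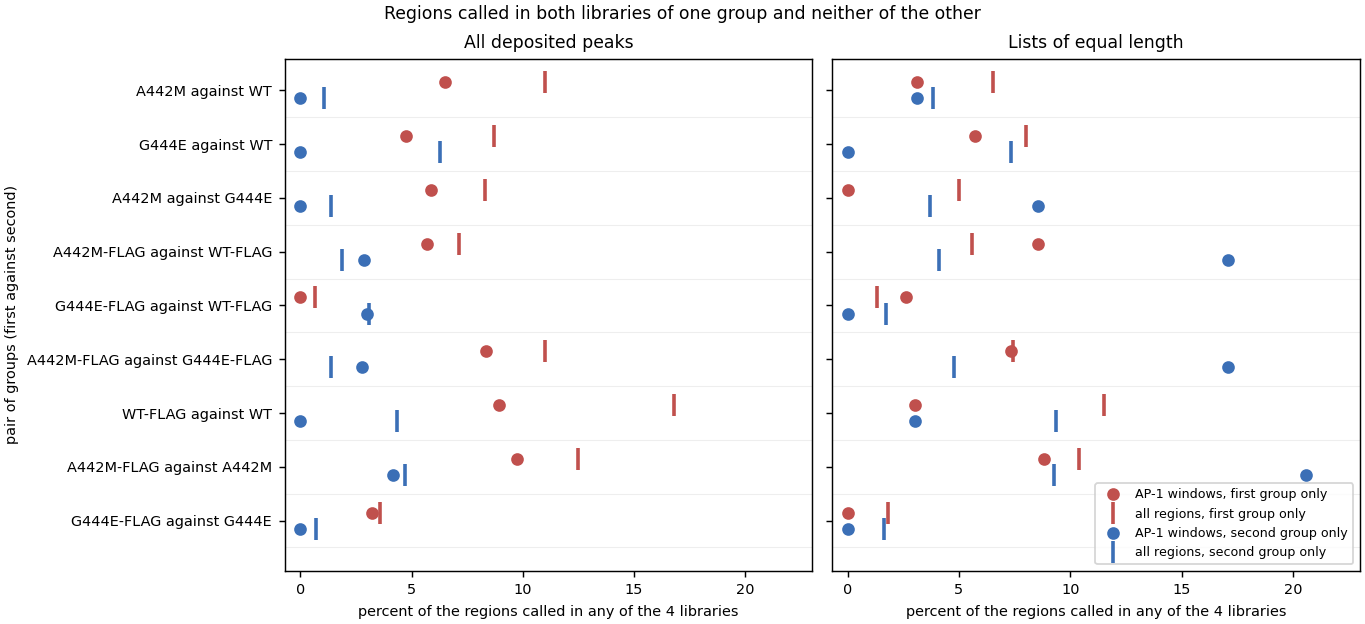
Share of regions (horizontal axis, percent of those called in any of the 4 libraries) that both libraries of 1 group and neither of the other called, for 9 pairs of groups (vertical axis), with all peaks on the left and lists of equal length on the right. Dots are the AP-1 windows and bars all regions, red for the group named first and blue for the group named second. With equal lists the blue dots of the 3 A442M-FLAG pairs stand at 17.1% to 20.6%, against bars of 4.12% to 9.25%.

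Other genes around AP-1 were counted in the same way. A region called in all 12 libraries lay in the windows of 7 of the 10 members, against 7 of 14 basic leucine zipper partners, 5 of 13 kinases and upstream factors and 8 of 15 genes known as AP-1 targets. Median regions per window were 8.5 in the members, against 6.5 in the partners, 6.0 in the kinases and 6.0 in the targets. No test of these lists was made. Among the partners BACH2, a repressor of the same zipper class, had the most regions (12). Among kinases and upstream factors MAPK8, which encodes the JUN kinase JNK1, had 19, 2 of them in all libraries, and the S6 kinase gene RPS6KA1 had 1. In the target list CD44, the hyaluronan receptor, had 22 and the protease gene MMP9 had 0. In FLAG against untagged libraries 3 of 14, 4 of 13 and 3 of 15 were higher at an unadjusted p under 0.05 in the exact permutation test, against 19.1% of all genes, 0 were lower and 0 passed the adjustment.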

How the data were processed

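Peak lists of 12 GATA3 ChIP-seq libraries were used, of 14 labelled samples. The build was hg38 and the tools included FastQC and MACS2 2.1.4, per the submitters' processing notes. What aligner, control library, threshold or filters they used is not given in the sources used here. A deposited list has the peaks of 1 library, with a score per peak, the authors' own value on a scale not named, at least 5.00 in every list. It served only to rank or filter within a list. Depth is unknown, so no counting interval was computed. Peaks (433307) sharing 1 bp or more were merged into 78999 regions. Alternatives kept these regions and changed which libraries called them: a score of at least 10, equal lists (the 25248 highest peaks of each), peaks covering at least 50% of a region, windows of 10 kb, and each library left out.

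Calls at single regions were compared by Fisher's exact test in 5 comparisons, and genes by the number of regions in their window with an exact permutation test (216 arrangements, smallest p 0.00926). Benjamini-Hochberg adjustment covered all regions whose calls could reach the threshold of 0.05, or all genes with a region. Calculations used Python with SciPy 1.17.1, and the tests were tested on simulated data. Labels number replicates 1 and 2 without saying what a number shares. Same-number libraries deviated together (correlations of 0.113 to 0.29 over the 15 pairs of groups), and on that ground the numbers count as pairs. In every group the replicate 1 list was longer than the replicate 2 list. The part of list length in these correlations was not tested.

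The members and lists were chosen with earlier results of these data known. All 10 members are named, with the region called most often and regions that were 1-sided between groups or reached an unadjusted p of 0.05. The region nearest to the start is given for the 8 members in the promoter table. For FOSL1 and BATF3 the start was not assigned, and regions are placed by the lower and upper end of the span. Other genes are named for the most or fewest regions of their list, and the fewest among the partners is not reported here.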

Additional observations from a re-analysis of the deposited data

Results flagged for a closer look

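At ATF3 the number of regions called moved in opposite directions with the tag in 2 genotypes. ATF3 had 2 and 2 regions in A442M-FLAG against 3 and 3 in A442M, a mean difference of -1.0, and 4 and 4 in WT-FLAG against 3 and 2 in WT, a mean difference of 1.5. G444E-FLAG had 4 and 3, against 4 and 4 in G444E, and over the 3 genotypes FLAG minus untagged was 0.0 (exact permutation p = 1.0). Every A442M-FLAG library was below both A442M libraries and every WT-FLAG library above both WT libraries. The WT-FLAG counts included 212665338 to 212665612 in replicate 1 only (percentile 13.2) and 212667424 to 212667779 in replicate 2 only (1.38). Neither was called in WT, and both lie closer to BATF3 and are shared with its window. FLAG lists were also longer, with means of 40081.5 peaks in WT-FLAG against 27069.0 in WT, and 47343.5 in A442M-FLAG against 37889.0 in A442M. The difference between the genotypes was not tested. Both untagged groups compared here also stood apart in peaks off the assembled chromosomes (110 and 84 in WT, 75 and 57 in A442M).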

How the results depend on the processing

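No region and no gene passed the adjusted threshold in any comparison under any setting run, each left-out library included. With the replicate block, comparisons of 4 against 4 libraries had 0 testable regions, so none could pass. In their main fits the smallest p that Fisher's exact test allows was 0.0286, over 5283 to 7363 tested regions. The adjustment therefore left little room to pass, and the lack of a pass says little there. At an unadjusted p under 0.05, the all-region counts without 1 library were 1579 to 3018 for FLAG against untagged (1521 with all), 32 to 167 for mutants against WT (83), 242 to 503 for A442M against WT (179), 124 to 322 for G444E against WT (74) and 619 to 1008 for A442M against G444E (490). Leaving out 1 library changes which p-values an exact test can reach, so these counts are not on the same footing. Testable regions for FLAG against untagged were 16804 to 18353 without 1 library, against 11777 with all. The FOSL2 region of that comparison, 1 of the members, was lost (count 0.0) with a score of at least 10, with equal lists and with 50% coverage, and lay outside the 10 kb windows (count 0.0, calls as before), and the member count was 1.0 to 3.0 without 1 library (2.0 without G444E-FLAG replicate 2 or A442M replicate 1, 3.0 without WT-FLAG replicate 2). The FOSL1 region of A442M against WT was lost with equal lists and 50% coverage (count 0.0) and with a score of at least 10, where JUN 58779927, with more calls in WT, took its place in the count. The replicate block gave 0.0 because it cannot go below an exact p of 0.0556 here. The count was 1.0 to 1.0 without 1 library. For A442M against G444E, 1.0 member region (JUN 58779927 again, with more calls in G444E) instead of 0.0 reached it with a score of at least 10 and with equal lists, and 0.0 to 1.0 without 1 library (1.0 without A442M replicate 1, either G444E-FLAG replicate or G444E replicate 1). Member genes at that level (FOSB, 1.0) were 2.0 with the replicate block, which took the numbers as pairs and added FOSL2, 0.0 with a score of at least 10, equal lists or 10 kb windows, and 0.0 to 3.0 without 1 library (3.0 without G444E-FLAG replicate 2, 2.0 without A442M-FLAG or WT-FLAG replicate 2, 0.0 without either A442M, either G444E or WT replicate 2, and FOSL2 in place of FOSB without WT replicate 1). The FOSB difference was -0.167 regions with equal lists (exact p = 1.0, against 0.00926 to 0.102 without 1 library). The block changed no other call of a member.

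Member regions fell to 51.0 in any library and 5.0 in all 12 with equal lists and to 25.0 and 5.0 with 10 kb windows, and those in all 12 to 7.0 with 50% coverage. The counts called in both libraries of 1 group and neither of the other also moved, given with the group named first ahead. With a score of at least 10 A442M against WT gave 1.0 and 1.0, A442M against G444E 0.0 and 1.0, A442M-FLAG against WT-FLAG 4.0 on the WT-FLAG side, G444E-FLAG against WT-FLAG 0.0 on the WT-FLAG side and G444E-FLAG against G444E 0.0 on the FLAG side. With equal lists A442M against WT gave 1.0 and 1.0, A442M against G444E 0.0 and 3.0, A442M-FLAG against WT-FLAG 6.0 on the WT-FLAG side, G444E-FLAG against WT-FLAG 1.0 and 0.0, A442M-FLAG against G444E-FLAG 3.0 and 7.0, A442M-FLAG against A442M 3.0 and 7.0, WT-FLAG against WT 1.0 and 1.0, and G444E-FLAG against G444E 0.0 on the FLAG side. With 50% coverage G444E against WT gave 1.0 on the WT side, A442M against G444E 1.0 on the G444E side, A442M-FLAG against WT-FLAG 2.0 and 1.0 (the ATF3 region, without JUN), G444E-FLAG against WT-FLAG 1.0 on the WT-FLAG side, A442M-FLAG against G444E-FLAG 1.0 on the G444E-FLAG side (ATF3 again) and G444E-FLAG against G444E 0.0 on the FLAG side. With 10 kb windows G444E against WT gave 1.0 on the G444E side, A442M against G444E 1.0 on the A442M side, A442M-FLAG against WT-FLAG 2.0 and 1.0, G444E-FLAG against WT-FLAG 0.0 on the WT-FLAG side, A442M-FLAG against G444E-FLAG 1.0 and 1.0, A442M-FLAG against A442M 2.0 on the FLAG side, WT-FLAG against WT 1.0 on that side, and G444E-FLAG against G444E 0.0 on the FLAG side. The cause was not tested, except that shorter windows hold fewer regions. Depth is unknown, so a missing peak is a region not called, and not a site without GATA3. Cells with an empty vector were not analysed here, and 2 libraries a group limit every comparison.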
